A study of Mus musculus with 4 samples.

Results

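The genes described here encode the ephrin, Slit and netrin guidance systems. Members were the genes of the deposited count matrices whose symbol names an Eph receptor, an ephrin, a Slit, a Robo receptor, a netrin, a netrin-G or an Unc5 receptor, together with *Dcc*. This gave 40 of 32285 genes: 3 Slits and 4 Robo receptors, 4 netrins and 5 netrin receptors, 2 netrin-G genes, 5 ephrin-A and 3 ephrin-B ligands, and 9 EphA and 5 EphB receptors. The rule uses symbols and no measured value, although the families were picked with earlier results of these data known.

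Guidance cues are secreted or membrane-bound proteins that steer growing axons and migrating cells by attraction or repulsion. Slits signal through Robo receptors, netrins through DCC and the UNC5 receptors, ephrin-A ligands mainly through EphA receptors and ephrin-B ligands mainly through EphB receptors. The netrin-G proteins are lipid-anchored synaptic molecules that bind the LRRC4 family and not DCC. In the adult nervous system many of these genes remain transcribed, where they are known for roles in synapses, myelin and blood vessels.

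Single-nucleus RNA-seq was done on mouse posterior hindbrain holding the dorsal vagal complex, with 2 libraries per group. Treated mice (AgRP-Gq;POMC-Gi) carried AgRP-IRES-Cre+/-, hM3DGqfl/-, POMC-Dre+/- and hM4DGifl/-, so that clozapine N-oxide (CNO) activates AgRP neurons through hM3DGq and inhibits POMC neurons through hM4DGi. Control mice are labelled WT, and the study's methods describe them as carrying both receptor alleles without Cre or Dre. Both groups received CNO at 3 mg per kg, 1 h before collection, at 12 to 20 weeks of age and in both sexes. The receptors are expressed from a Rosa26 transgene wherever the recombinase was ever active, and AgRP and POMC cell bodies lie mainly in the hypothalamus, outside the tissue sampled. Each library holds pooled nuclei, the labels do not tie libraries to animals, and p-values measure only the spread between libraries.

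After the authors' filters 39461 of 44303 barcodes were kept, 9723 to 10051 per library, with 48904976 to 53089402 unique molecular identifiers (UMIs) per library and a median of 3211 to 3502 per nucleus. They fell into 14 annotated cell types, and the 12539 neurons into 134 clusters. Neurons made up 25.4% and 27.2% of the control libraries and 38.0% and 36.5% of the treated libraries. Of 39293 barcode sequences, 168 (0.428%) occurred in 2 libraries. In most cell types each defining marker was highest in its own type. The exceptions were astrocytes (3 of 5), oligodendrocyte precursor cells (OPC, 4 of 5) and tanycyte-like cells (3 of 4). Choroid plexus markers stood apart in replicate 2 of each group: their summed level in neurons was 29.7, 1036, 36.3 and 610 CPM, from the control replicates 1 and 2 to the treated replicates 1 and 2. *Xist*, the X-inactivation RNA of female cells, was at 507, 319, 541 and 16.2 CPM in neurons in that order, so treated replicate 2 stood apart from the other 3 libraries.

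Levels are counts per 1e6 UMIs (CPM), taken from the sums over the nuclei of a cell type in each library. Series of 4 values are given in the order control replicates 1 and 2, then treated replicates 1 and 2, and means are over these 4 libraries (± SD, n = 4). Members span long genes (median 63.7 kb against 12.3 kb for all genes), and over the 40 members the level in neurons ranked with gene span (Spearman's rho 0.86), so levels are compared between cells and not between genes. *Ephb1*, *Ntn1*, *Ntn3*, *Ntng2*, *Slit2* and *Slit3* each overlap another annotated gene on the same strand, and the division of UMIs between them is uncertain. Because UMIs were summed over nuclei, fewer nuclei of one kind and less RNA per nucleus cannot be told apart within a cell type.

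Of the 40 members, 10 were highest in neurons (*Epha5*, *Epha6*, *Epha10*, *Ephb2*, *Ntng1*, *Robo2*, *Slit1*, *Slit3*, *Unc5a* and *Unc5d*), against 11.4% of 22836 genes measured. Over 7 alternatives this count was 9 to 14, and 20 of the 40 kept their highest type in every one. *Robo1* moved to OPC in 3, *Ntn1* to mural cells in 2, *Efna5* and *Slit2* to neurons where only types with at least 50 nuclei per library were kept, and *Epha7* and *Epha8* to neurons by the mean log-normalized value per nucleus. Of the 10, *Slit3* moved to the type annotated Oligodendrocytes/OPC without control replicate 2 and without treated replicate 1, and *Unc5a* moved there without control replicate 1. The other 30 were highest elsewhere, 21 of them with at least 20 UMIs there and 9 with fewer. Among the 21, 5 peaked in oligodendrocytes, 5 in fibroblasts, 4 in endothelial cells, 3 in OPC, 2 in tanycyte-like cells and 2 in mural cells. These are descriptions without a test, since the cell types were themselves built from expression. A UMI was found in at least 5% of neurons for 27 members.

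**Figure D1:**
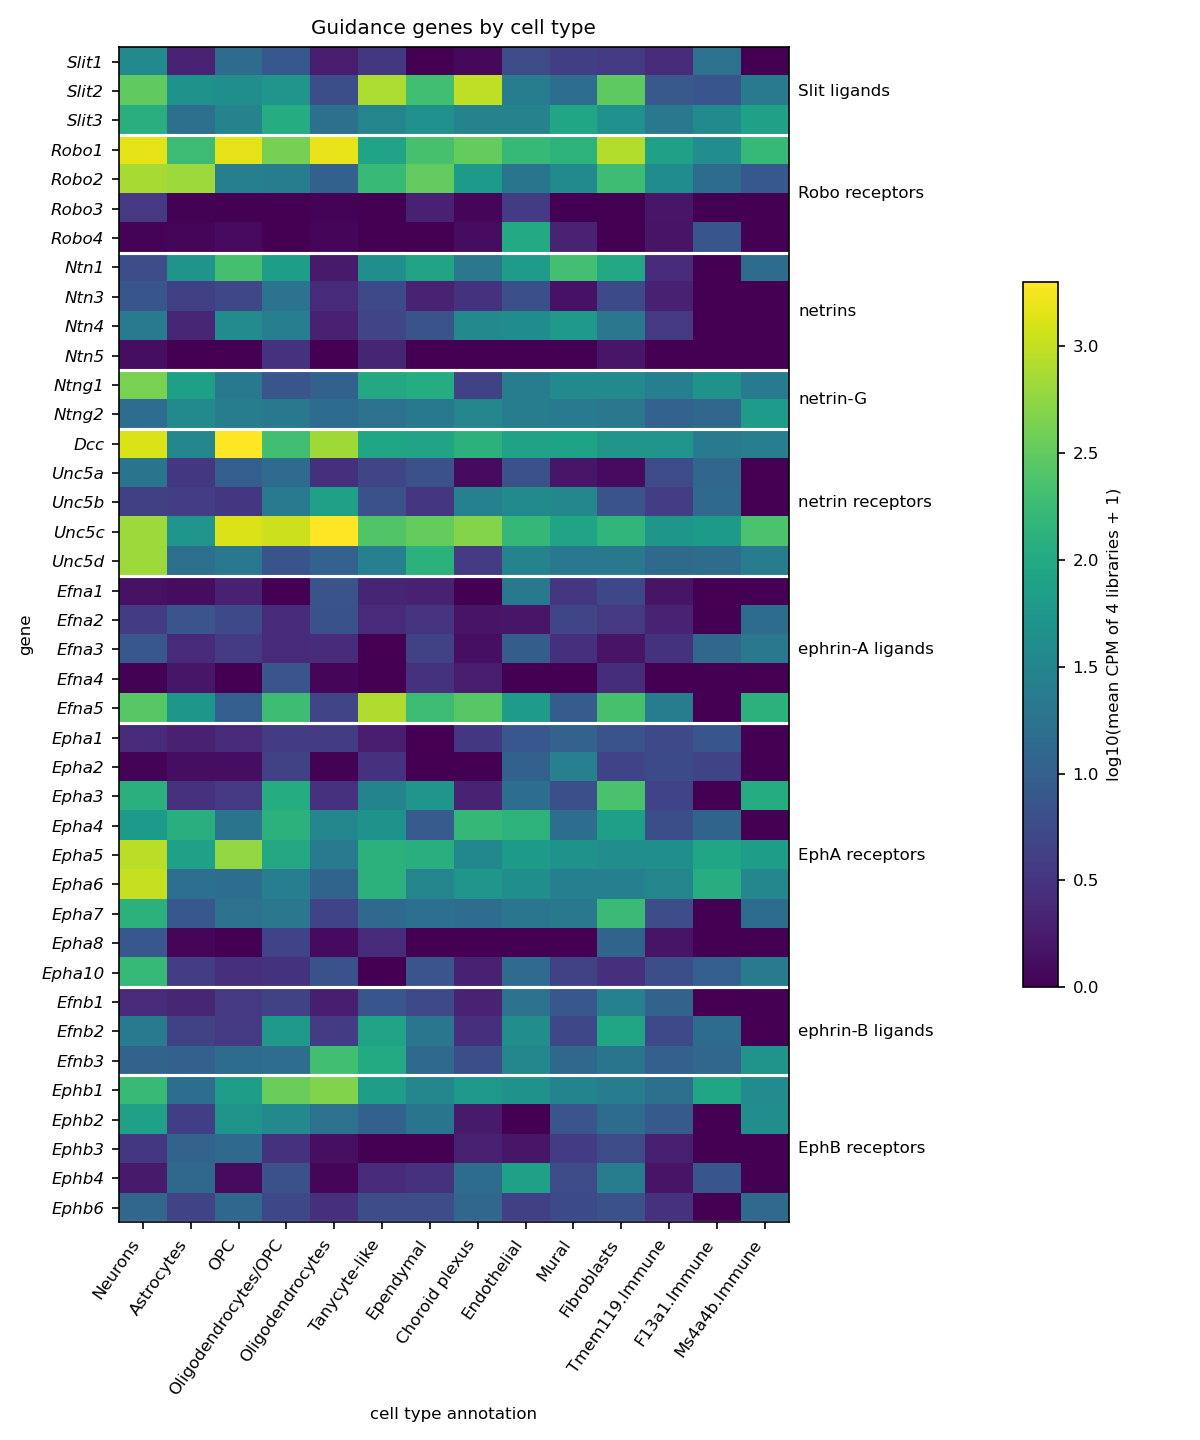
Mean level of the 40 members in 14 cell types, ordered by role, as log10 of mean CPM + 1 over 4 libraries. *Dcc* and *Unc5c* are high in OPC, oligodendrocytes and neurons, whereas *Robo4* and *Ephb4* are high in endothelial cells.

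The netrin system divided over the oligodendrocyte lineage. *Dcc*, the attractive netrin receptor, reached 2025, 1942, 1978 and 2016 CPM in OPC and 642, 568, 842 and 666 CPM in oligodendrocytes. Neurons held 1383, 1214, 1285 and 1324 CPM, with a UMI in 83.2% of nuclei (95% exact Clopper-Pearson interval 82.6 to 83.9, counting error only). Astrocytes stayed at 17.0 to 52.4 CPM, so that each OPC library lay above every library of the other 3 types.

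*Ntn1*, which encodes netrin-1, was found in OPC at 211, 218, 227 and 191 CPM. Mural cells, the pericytes and smooth muscle of vessels, had 163, 156, 250.2 and 262 CPM, and the means of these types (212 ± 15.6 and 208 ± 56.0) did not differ beyond their spread. Oligodendrocytes held 0.724 ± 0.239 CPM and neurons 5.05 ± 0.58 CPM. Ligand and receptor were thus both high in OPC, and *Ntn1* was near 0 in oligodendrocytes.

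The repulsive netrin receptors had other patterns. *Unc5c* was highest in oligodendrocytes at 2272, 1999, 1995 and 1685 CPM, ahead of OPC at 1282, 1258, 1509.6 and 1241 CPM and neurons at 622, 642, 685 and 672 CPM. The ranges of these 3 types did not overlap. *Unc5b*, known for its part in vessel growth, was at 75.8, 73.6, 74.4 and 80.6 CPM in oligodendrocytes and only 2.29 ± 2.22 CPM in OPC. *Unc5b* in endothelial and mural cells averaged 36.7 ± 9.43 and 33.1 ± 5.01 CPM, between those levels. *Unc5d* was mainly neuronal, at 637, 603, 702 and 645 CPM, and *Unc5a* held 19.1, 20.8, 15.2 and 16.1 CPM in neurons.

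*Ntn4*, a laminin-binding netrin, was highest in mural cells at 72.9, 93.4, 27.05 and 44.9 CPM, a spread that overlapped OPC (37.6 ± 6.95 CPM) and endothelial cells (39.2 ± 16.8 CPM). Both control libraries lay above both treated libraries in *Ntn4* and below them in *Ntn1*. Neither gene was called between the groups in mural cells, and the share of all genes with such a split was not counted. Mural cluster 98, high in *Ntn4* and low in *Ntn1*, held 38, 40, 7 and 15 nuclei beside 251, 211, 96 and 148 in cluster 13, and the part of this make-up in the mural levels was not tested. Neurons held 22.9, 22.7, 19.4 and 22.3 CPM of *Ntn4*. *Ntn3* in neurons was at 6.81, 6.63, 6.24 and 6.72 CPM.

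**Figure D2:**
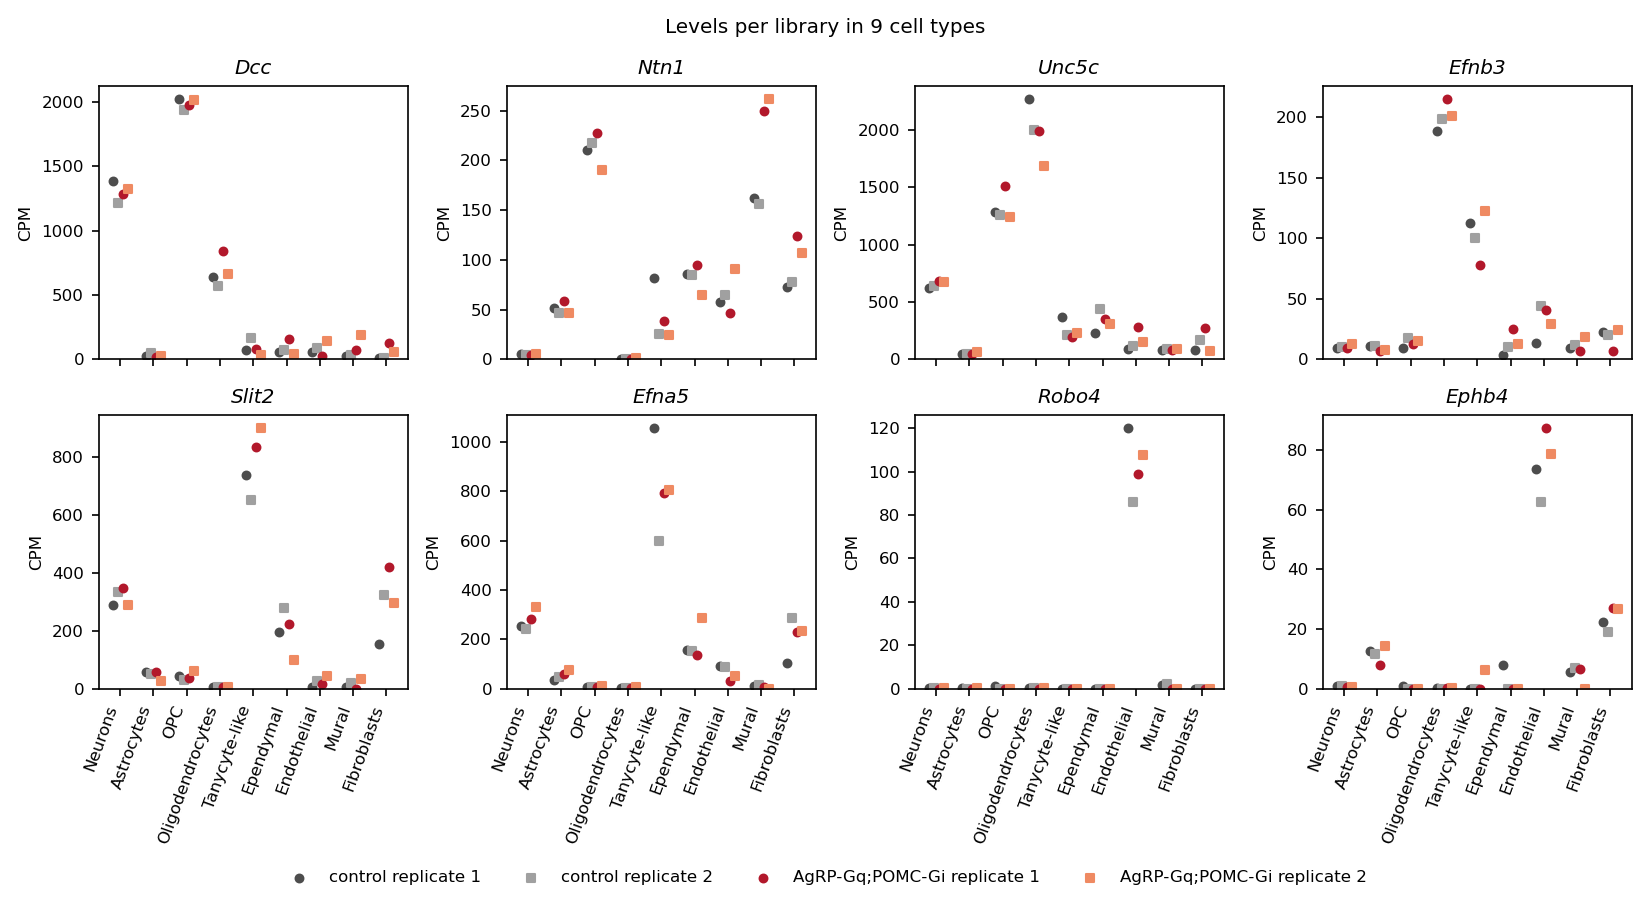
CPM per library (points, control and AgRP-Gq;POMC-Gi) of 8 members in 9 cell types, on linear axes. *Dcc* and *Ntn1* are high in OPC, *Unc5c* and *Efnb3* in oligodendrocytes, *Slit2* and *Efna5* in tanycyte-like cells, and *Robo4* and *Ephb4* in endothelial cells.

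Slit ligands and Robo receptors were spread over neurons and glia. *Slit2* was highest in tanycyte-like cells at 738, 649.5, 835 and 898 CPM, with neurons at 290.1, 335, 347 and 287 CPM. Choroid plexus nuclei, left out of the ranking because 1 library holds 2 of them, had 757, 994, 1074 and 1067 CPM. Of the other ligands, *Slit3* was at 133, 113, 117 and 111 CPM in neurons and *Slit1* at 36.0, 37.0, 34.6 and 41.4 CPM.

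*Robo1* was high in 3 types whose libraries overlapped: oligodendrocytes (1622, 1239.5, 1747 and 1486 CPM), OPC (1579, 1529, 1459 and 1345 CPM) and neurons (1491, 1449.6, 1534 and 1295 CPM). Fibroblasts averaged 827 ± 403 CPM, and astrocytes 182 ± 10.9 CPM. *Robo2* differed between these types. It was at 712, 722, 779 and 772 CPM in neurons and 516, 607, 758 and 711 CPM in astrocytes, which overlapped, but at 9.70 ± 3.04 CPM in oligodendrocytes. *Robo4*, the endothelial Robo, was at 119.9, 86.0, 99.0 and 108 CPM in endothelial cells and 0.0858 ± 0.0630 CPM in neurons. A *Robo4* UMI was seen in 15.6% of endothelial nuclei and 0.0798% of neurons, although median depth was 1460 UMIs in the first and 8704 in the second.

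Among ephrin ligands, *Efnb3*, a ligand known from midline axon repulsion, was highest in oligodendrocytes at 189, 198, 215 and 201 CPM, against 13.6 ± 3.66 CPM in OPC and 10.4 ± 1.63 CPM in neurons. Of the tanycyte-like clusters, 141 held 267 ± 101 CPM of *Efnb3* and 61 held 37.9 CPM. The highest oligodendrocyte cluster, 10, held 246 ± 15.1 CPM. *Efna5* was highest in tanycyte-like cells at 1055, 599.6, 792 and 806 CPM and in neurons was at 255, 242, 284 and 329 CPM. *Efnb2*, the arterial ephrin, was at 61.2, 90.6, 92.6 and 95.2 CPM in fibroblasts and 82.0, 87.4, 63.1 and 101 CPM in tanycyte-like cells, which overlapped. *Efnb2* in neurons was at 23.9, 23.4, 15.7 and 25.4 CPM. *Efnb1* was highest in fibroblasts (33.4, 11.4, 22.6 and 41.5 CPM) and *Efna1* in endothelial cells (16.4, 13.95, 34.9 and 17.5 CPM), both at low counts. *Efna3* reached 6.92, 7.58, 5.26 and 7.80 CPM in neurons.

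Of the EphA receptors, *Epha6* and *Epha5* were neuronal, at 977, 1024, 1121 and 900.1 CPM and at 884, 938, 894 and 893 CPM. *Epha5* was kept in OPC (575 ± 21.4 CPM) and low in oligodendrocytes (20.9 ± 3.25 CPM), whereas *Epha6* was low in OPC (14.5 ± 1.95 CPM). *Epha10*, which lacks kinase activity, was at 160.5 ± 3.88 CPM in neurons and at 13.3 ± 6.06 CPM in endothelial cells. Vessel-associated and meningeal nuclei carried others. *Epha3* (273, 169.8, 289 and 151 CPM) and *Epha7* (222, 115, 181 and 190.4 CPM) were highest in fibroblasts, where *Epha7* overlapped neurons (132 ± 5.30 CPM), and *Epha4* in endothelial cells (153, 109, 163 and 117 CPM), where it overlapped astrocytes (115.8 ± 9.45 CPM). *Epha8* was highest in fibroblasts at 0, 12.4, 18.1 and 12.2 CPM, over 26 UMIs, which overlapped neurons (6.90 ± 0.409 CPM). *Epha2* was highest in mural cells at 29.9, 30.3, 27.05 and 18.7 CPM, followed by endothelial cells at 9.47 ± 3.70 CPM, and neurons held 0.0719 ± 0.0316 CPM.

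The EphB receptors differed in the cell type where they were highest. *Ephb1* was at 454, 439.5, 519.9 and 476 CPM in oligodendrocytes, 155, 165, 175 and 163 CPM in neurons and 69.1 ± 4.51 CPM in OPC, with no overlap. *Ephb2* was highest in neurons at 81.9, 74.8, 70.3 and 74.9 CPM, followed by OPC at 49.6 ± 10.4 CPM. *Ephb4*, the venous partner of ephrin-B2, was at 73.6, 62.8, 87.4 and 78.7 CPM in endothelial cells and 0.720 ± 0.175 CPM in neurons. *Ephb3* was highest in OPC (14.5, 13.4, 6.89 and 14.9 CPM), overlapping astrocytes (10.3 ± 3.27 CPM).

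Levels also differed between clusters of a cell type. Over 13 oligodendrocyte clusters *Robo1* ranged from 595 to 2209 CPM and *Ephb1* from 216 to 1070 CPM, while *Unc5c* ranged from 1444 to 2264 CPM. The mural clusters 13 and 98 differed in *Ntn1* (222 and 63.9 CPM) and in the opposite direction in *Ntn4* (24.6 and 302 CPM). Over 11 astrocyte clusters *Ntng1* ranged from 8.0 to 262 CPM.

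Neuronal clusters were classed by *Slc17a6*, the vesicular glutamate transporter, and *Slc32a1*, the vesicular GABA transporter, which gave 69 glutamatergic clusters (6201 nuclei) and 46 GABAergic clusters (4933 nuclei). Of 37 members with at least 20 UMIs, 3 were at least 2-fold higher in glutamatergic neurons with no overlap of libraries (background 2.71% of 21200 genes) and 0 were higher in GABAergic neurons (background 1.26%; either direction 3.97%). The classes were built from expression, so no test was made. For 33 of the 37 the classes lay within 1.5-fold.

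*Ntng1*, which encodes netrin-G1, was at 622, 609.9, 642 and 636 CPM in glutamatergic and 192, 205, 205 and 198 CPM in GABAergic neurons, a 3.13-fold ratio. *Ntng2*, its paralog, was at 21.7, 20.4, 18.9 and 18.3 against 6.95, 6.62, 6.25 and 6.39 CPM, a 3.03-fold ratio. By the median cluster of each class the values were 468 and 164 CPM for *Ntng1* and 7.11 and 3.89 CPM for *Ntng2*. Among cell types *Ntng2* was not highest in neurons. It was highest in Ms4a4b immune nuclei, and in astrocytes where only types with at least 50 nuclei per library were kept. Over 11 astrocyte clusters *Ntng2* ranged from 16.9 to 59.1 CPM. *Ntn1* was at 6.79, 5.34, 5.53 and 8.45 against 2.38, 2.21, 2.49 and 2.77 CPM (2.65-fold). That ratio rested on few clusters, since the median cluster held 1.496 CPM in the glutamatergic class and 2.03 CPM in the GABAergic class.

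**Figure D3:**
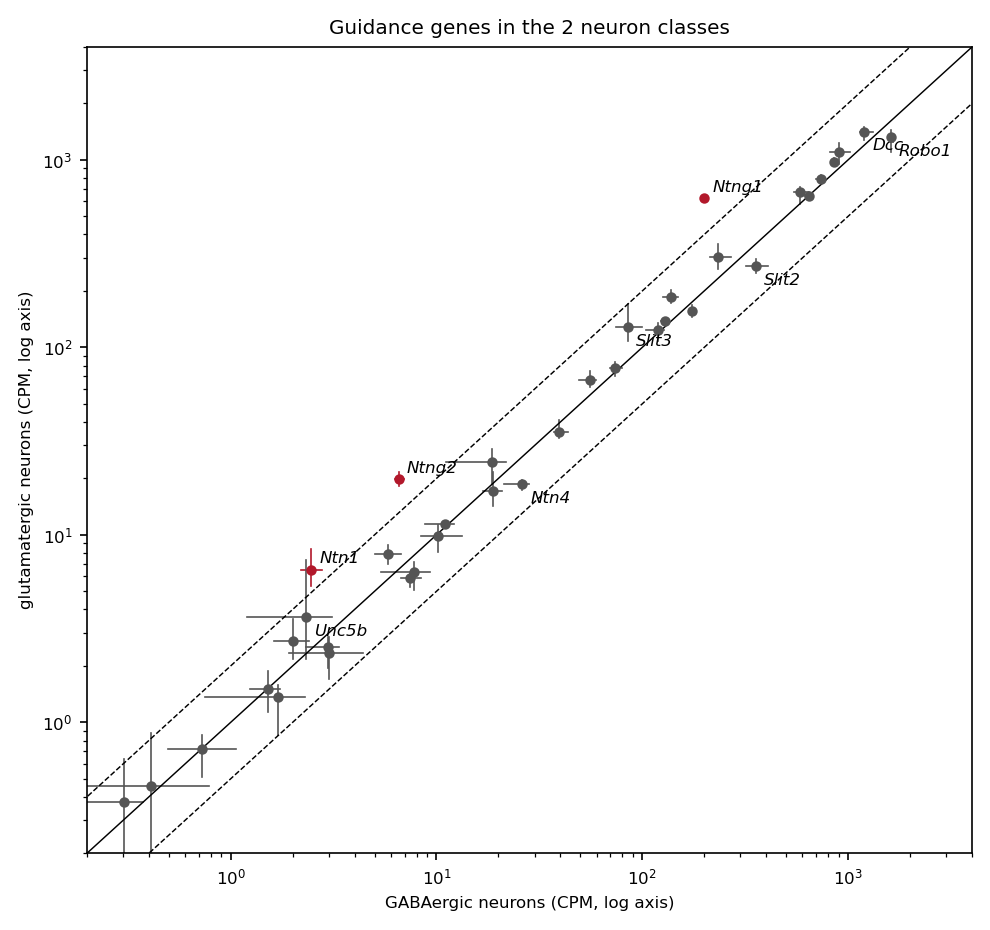
Level of 37 members in GABAergic (x axis) and glutamatergic (y axis) neurons in CPM on log axes, with points for the mean of 4 libraries and lines for their range. *Ntng1*, *Ntng2* and *Ntn1* lie above the dashed 2-fold line.

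Because both netrin-G genes were higher in glutamatergic than in GABAergic neurons, the 250 bases before their RefSeq starts (GRCm38.p6, minus strand) are shown. Capitals mark the E-box CAGATG. The windows are chr3:110143473-110143722 for *Ntng1* and chr2:29248100-29248349 for *Ntng2*, each inside the gene's annotated span.
Ntng1: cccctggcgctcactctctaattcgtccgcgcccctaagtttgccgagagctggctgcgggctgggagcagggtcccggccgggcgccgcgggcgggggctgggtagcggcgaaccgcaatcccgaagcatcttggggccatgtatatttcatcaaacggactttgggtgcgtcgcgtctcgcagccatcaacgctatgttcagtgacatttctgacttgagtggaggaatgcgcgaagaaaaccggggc
Ntng2: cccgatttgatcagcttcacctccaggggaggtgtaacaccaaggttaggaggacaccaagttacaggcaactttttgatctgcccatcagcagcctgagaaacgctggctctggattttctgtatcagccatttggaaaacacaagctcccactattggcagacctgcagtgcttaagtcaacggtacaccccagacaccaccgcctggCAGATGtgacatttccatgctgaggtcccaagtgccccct
The *Ntng1* window has 62.4% GC and 25 CpG, the *Ntng2* window 52.4% GC and 4 CpG, against medians of 52.4% and 6 over 32851 windows. The motifs were searched on both strands. CAGCTG is in 13% of all windows. CAGATG is in 14.4% of them. TATAAA is in 12.4%. The *Ntng2* window has 1 CAGATG, 40 bases before the start, and neither window has another of these 3 motifs. Such a match is a description of letters only.

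In 120 of the neuronal clusters every library held 5 or more nuclei, and over these, members ranged from broad to nearly cluster-restricted. For 27 members with at least 20 UMIs in their highest cluster, a median of 8 clusters reached 50% of that cluster's level. There were 10 members with at most 5 such clusters and 5 with over 30, and 25 different clusters held a highest level. When each library was left out in turn, 15 of the 27 members kept their highest cluster every time. Clusters are named by the authors' number and lead genes.

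The widest contrasts to the median cluster were as follows. *Ntn1* was highest in cluster 157 (Cnpy1/Adamts18) at 134, 274, 152 and 199 CPM, 121 times the median of 1.6 CPM, with cluster 151 (Lhx2/Reln) at 167 ± 27.9 CPM. *Robo3*, a Robo that modulates Slit repulsion in commissural axons, peaked in cluster 46 (Col18a1/Gpc3) at 37.6, 20.6, 22.8 and 42.3 CPM, 42.6 times its median, with cluster 140 (Fgf10/Cpne4) at 27.4 CPM within that spread. *Unc5b* peaked in cluster 72 (Ano2/Foxp2) at 57.9, 62.3, 44.5 and 30.2 CPM, 37.1 times its median. The next *Unc5b* level was 23.7 CPM in cluster 157. *Ntng2* peaked in cluster 42 (Mylk/Mctp2) at 96.0, 116.2, 114 and 108 CPM, 21.3 times its median. *Slit3* peaked in cluster 116 (Prph/Slc5a7), whose lead genes mark cholinergic motor neurons, at 1590.5, 760.2, 589.9 and 813 CPM, and cluster 72 held 869 ± 66.3 CPM, so these clusters did not differ beyond their spread.

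*Dcc* peaked in cluster 97 (Gfral/Sctr), whose lead gene encodes the GDF15 receptor of area postrema neurons, at 3767, 4103, 4775 and 4195 CPM, with a UMI in 97.03% of 101 nuclei. *Robo1* peaked in cluster 132 (Npas1/Skor2) at 3704 ± 152.5 CPM, with a UMI in all 65 nuclei. *Efna5* peaked in cluster 49 (Ccbe1/Tspan18) at 1440.1 ± 244 CPM and *Ntng1* in cluster 168 (Rspo2/Ntng1) at 2108 ± 493 CPM, close to 1779 ± 59.5 CPM in cluster 42. *Unc5c* peaked in cluster 104 (Gabra6/Fat2), whose lead gene marks cerebellar granule cells, at 2642 ± 218 CPM. *Unc5d* peaked in cluster 127 (Dach1/Unc5d) at 2553 ± 219 CPM. In contrast *Epha10* had 76 clusters at 50% or more of its highest level, which was 1.7 times its median.

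**Figure D4:**
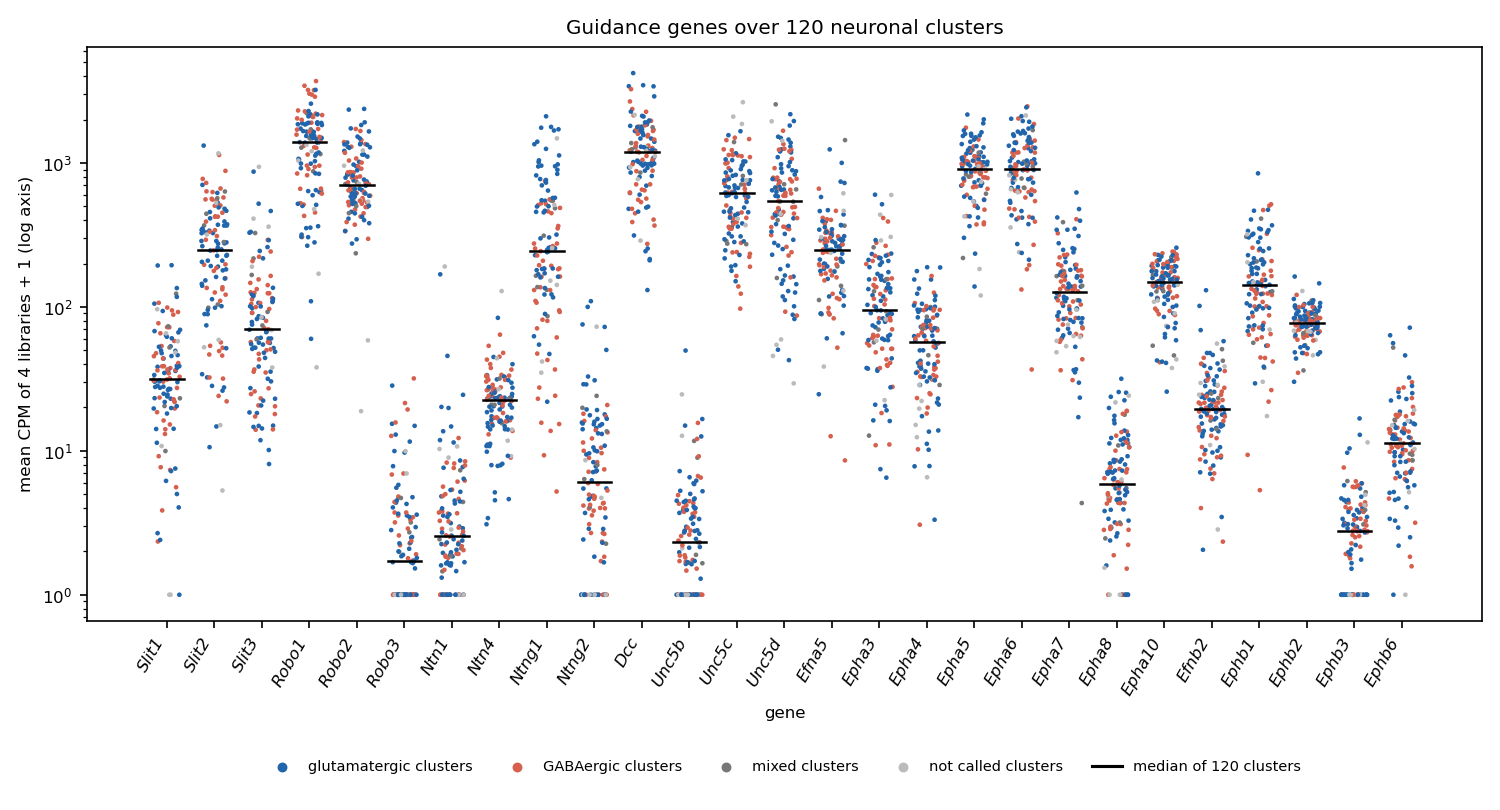
Mean level over 4 libraries of 27 members in each of 120 neuronal clusters (points), as CPM + 1 on a log axis, with a bar at the median cluster. *Ntn1* has few clusters far above its median of 1.6 CPM, and *Epha10* lies in a narrow band.

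Over the 120 clusters the ranks of members were weakly related. The median Spearman's rho of 351 member pairs was 0.0098, and 184 were above 0. The highest were *Epha10* with *Robo1* (0.47), *Epha10* with *Ntng2* (0.44), *Robo2* with *Slit1* (0.41), *Epha4* with *Ntng2* (0.40) and *Epha10* with *Epha4* (0.39). The lowest were *Ephb3* with *Robo2* (-0.39), *Ntng2* with *Robo2* (-0.38) and *Epha5* with *Slit3* (-0.35). The clusters share libraries and differ in depth. Depth ranked with *Epha10* (0.62), *Ntng2* (0.57), *Ephb3* (0.39), *Epha4* (0.31), *Robo1* (0.275), *Slit1* (-0.29) and *Robo2* (-0.35). Among 27 fixed ligand-receptor pairs, rho ran from -0.30 (*Ntng2* with *Lrrc4*) to 0.41 (*Slit1* with *Robo2*). The first was -0.15 without control replicate 1 and -0.22 without treated replicate 2, and the second stayed between 0.38 and 0.40 when 1 library was left out. The paralogs *Ntng1* and *Ntng2* had a rho of 0.29.

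The design compares hindbrain transcription between mice with AgRP activation and POMC inhibition and control mice, all given CNO. No library came from vehicle-treated mice, so receptor activation and the genotype itself cannot be told apart. In all neurons, edgeR's quasi-likelihood test with Benjamini-Hochberg adjustment called 0 of 12115 genes (0%), with 667 at an unadjusted p under 0.05, and DESeq2 called 12. Of 27 members tested 0 were called by either tool, 2 were at an unadjusted p under 0.05 in edgeR, and every log2 fold change (treated over control) lay within 0.36 of 0. The median was 0.033 over members and near 0 over all genes (-0.00029). Without TMM scaling these medians were -0.029 and -0.060. *Efna5* in neurons was at 0.36 (SE 0.085) and *Unc5a* at -0.29 (SE 0.10), both with an edgeR adjusted p = 0.81. With equal weight of clusters these differences were 0.14 and -0.43.

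Treated replicate 2 decides that count: without it 9 members were called in neurons by edgeR, 8 higher (*Efna5*, *Epha6*, *Ephb1*, *Ntng1*, *Robo1*, *Robo2*, *Unc5c* and *Unc5d*, log2 fold changes 0.18 to 0.31) and *Efnb2* lower (-0.47), beside 957 higher and 1060 lower over all genes. In that fit the lone treated library is assumed to vary like the controls. All 5 oligodendrocyte markers (274, 230, 134 and 170 CPM summed) and 4 of 5 mural markers (43.6, 40.9, 35.4 and 38.2 CPM summed) were lower in both treated libraries of neurons. The part of these and of the low *Xist* level of treated replicate 2 in the neuronal values was not tested. In glutamatergic and in GABAergic neurons edgeR called 0 of 27 members, and 0% of 12150 and 12097 genes, with 677 and 602 genes and 3 and 1 members at an unadjusted p under 0.05. DESeq2 called 11 and 3 genes there and 0 members. Without treated replicate 2 edgeR called 1 member (*Ephb1*) beside 553 genes in glutamatergic neurons and 6 (*Efnb2*, *Epha6*, *Robo2*, *Slit2*, *Unc5c* and *Unc5d*) beside 896 genes in GABAergic neurons.

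Among non-neuronal types 9 were tested, in which 82 of 67663 tests were called, and 2 of 93 member tests. In astrocytes, where 0.626% of 8462 genes were called, 1 of 11 members was. *Ntng1* was at 59.1, 44.9, 80.0 and 109 CPM, both treated libraries above both controls (log2 fold change 0.89, SE 0.15, edgeR adjusted p = 0.0264). DESeq2 gave an adjusted p of 0.00718. Without treated replicate 2 the log2 fold change was 0.75 with an edgeR adjusted p = 0.061. *Efna5* in astrocytes was at 34.8, 45.9, 58.2 and 76.9 CPM and lay at the threshold (log2 fold change 0.79, edgeR adjusted p = 0.0509). It was called by DESeq2 (adjusted p = 0.0493), with edgeR's own filter, without a filter, with the replicate block, without control replicate 2 (0.99) and without treated replicate 1 (0.90), and not without control replicate 1 (0.61), without treated replicate 2 (0.67) or without TMM (0.75). Astrocyte cluster 20 gave 41, 51, 146 and 180 of the *Ntng1* UMIs, from 63, 97, 160 and 182 nuclei, at 204, 169, 339 and 337 CPM. With equal weight for each of the 11 clusters the log2 difference was 0.32 for *Ntng1* and 0.41 for *Efna5*, and the treated mean was higher in 5 and 7 of them. All 5 oligodendrocyte markers in astrocytes were lower in both treated libraries, summing to 586, 649, 368 and 472 CPM. The part of these in the *Ntng1* result was not tested.

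In mural cells, where 0.437% of 5723 genes were called, 1 of 6 members was. *Robo1* was at 101, 65.4, 74.4 and 299 CPM, so that the groups overlapped (log2 fold change 1.33, SE 0.31, edgeR adjusted p = 0.0200). Treated replicate 2, the library low in *Xist*, alone was high, and without it the log2 fold change was -0.10 with an edgeR adjusted p = 0.977. The *Robo1* call was also lost without control replicate 2 (1.03), without TMM (1.31, edgeR adjusted p = 0.0515) and with edgeR's own filter (1.30, adjusted p = 0.102). DESeq2 gave *Robo1* an adjusted p of 0.999. No member was called in OPC (0 of 14 tested, background 0.0444%), endothelial, ependymal, fibroblast, oligodendrocyte, tanycyte-like or Tmem119 immune nuclei. The group effect in neurons differed from that in astrocytes for 0 of 10 members (background 0.203%) and from that in oligodendrocytes for 0 of 6 (background 0.38%), by edgeR's interaction test.

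In single neuronal clusters 16 of 2991 member tests were called (0.535%), 8 higher and 8 lower, against 0.0385% of 1396489 tests over all genes, 0.0195% higher and 0.0189% lower. Without TMM scaling the split was 5 higher and 8 lower. The 16 calls came from 5 members in 12 clusters that held 5 to 49 nuclei per library. With edgeR's own count filter 6 of 1897 member tests were called against 0.0208% of all. The groups did not overlap in any of the 16, but these pairs were chosen by the test, so this adds no support. Of the calls described below, those of *Ntng1* in cluster 142 and *Unc5d* in cluster 184 were lost without TMM scaling (2.31 and 3.84), and those of *Efna5* in cluster 124 and *Slit2* in cluster 148 without a filter (0.92 and -4.28). With the replicate block the calls of *Dcc* in clusters 59 and 148 (-1.23 and -2.67), *Efna5* in cluster 109 (1.93), *Ntng1* in cluster 148 (-2.29) and *Slit2* in cluster 148 (-4.31) were lost. With edgeR's own filter the calls lost were *Dcc* in clusters 59 and 127 (-1.20 and -2.17), *Efna5* in clusters 124 and 156 (0.98 and 1.79), *Ntng1* in clusters 117, 142 and 156 (-2.51, 2.34 and 1.74) and *Unc5d* in cluster 153 (3.21). That filter left *Ntng1* in cluster 84, *Slit2* in cluster 148 and *Unc5d* in cluster 184 untested.

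*Dcc* was lower in treated libraries of 4 clusters. In cluster 84 (Zfp804b/Lemd1) it was at 1208, 759.6, 299 and 199.8 CPM (log2 fold change -1.83, SE 0.26, edgeR adjusted p = 1.33e-05). This call held without each library in turn. In cluster 59 (Kcnmb2/Sema3a) *Dcc* was at 462, 624, 155 and 309.7 CPM (-1.20, adjusted p = 0.0171). In cluster 127 it was at 2336, 509, 440.2 and 138 CPM (-2.17, adjusted p = 0.00362), and in cluster 148 (Ccdc172/Ebf2) at 301, 557, 26.8 and 85.5 CPM (-2.51, adjusted p = 0.00694). The cluster 59 call was lost without control replicate 2 (-0.97) or treated replicate 1 (-0.83), and that of cluster 127 without control replicate 1 (-0.69) or treated replicate 2 (-1.59). In cluster 148 it was lost without control replicate 2 (-2.16), treated replicate 1 (-2.06) or treated replicate 2 (-3.62). All *Dcc* UMIs there came from 1 nucleus in control replicate 2 (19 UMIs, 5 nuclei) and in treated replicate 1 (2 UMIs, 14 nuclei).

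*Ntng1* moved in both directions. It was lower in clusters 84 (256, 44.2, 28.8 and 11.4 CPM), 117 (Ebf2/Nmu; 216, 198, 35.8 and 34.7 CPM) and 148 (488, 381, 93.8 and 59.9 CPM), with edgeR adjusted p of 0.0170, 0.00341 and 0.00798. It was higher in clusters 142 (Cpne4/Trhde; 33.3, 67.6, 271 and 232 CPM) and 156 (Ankfn1/Pou4f1; 68.9, 89.0, 263 and 259.5 CPM), with edgeR adjusted p of 0.0165 and 0.00996. The calls in clusters 142 and 156 were lost when any 1 library was left out, with log2 fold changes of 2.08 to 3.03 and 1.68 to 2.00. Without control replicate 1 the cluster 84 value was -0.86 and no longer called. In cluster 117 the call was lost without control replicate 1 (-2.42) or treated replicate 2 (-2.39), and in cluster 148 without control replicate 1 (-2.09), treated replicate 1 (-2.65) or treated replicate 2 (-1.98). In clusters 84 and 117 all *Ntng1* UMIs of 1 library came from 1 nucleus. In cluster 148 only 2, 3, 3 and 3 nuclei held an *Ntng1* UMI, and in cluster 142 the control libraries held 2 and 4 UMIs. The cluster 148 calls of *Dcc*, *Ntng1*, *Slit2* and *Lrrc4c* share the same nuclei, 9 and 5 of them in the control libraries.

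*Efna5* was higher in all 3 of its clusters. In cluster 109 (Gcg/Reln), whose lead gene encodes preproglucagon, it was at 90.4, 63.4, 324 and 221 CPM (log2 fold change 1.90, SE 0.33, edgeR adjusted p = 0.0164). Treated replicate 1, the highest library, held 67 UMIs there, and 1 nucleus gave 70.1% of them. The call was lost without control replicate 2 (1.66, adjusted p = 0.066). *Efna5* in cluster 124 (Zfp804b/Dlk1) was at 424, 476, 852 and 895 CPM (0.97, adjusted p = 0.00834) and in cluster 156 at 43.1, 102, 254 and 223 CPM (1.88, adjusted p = 0.0121), and of the leave-one-out fits each call was held in the one without control replicate 2. In the other 3 of these fits the values were 0.91 to 1.00 in cluster 124 and 1.34 to 1.94 in cluster 156.

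*Unc5d* was higher in clusters 153 (Lmo3/Cpne4; 15.5, 26.5, 140 and 287 CPM) and 184 (Calcr/Shox2; 52.3, 26.5, 1280 and 95.6 CPM), with edgeR adjusted p = 0.000548 and 2.86e-05. Counts were low, at 1, 3, 17 and 42 UMIs in cluster 153 and 4, 1, 47 and 5 UMIs in cluster 184. In each cluster 1 control library held 1 UMI, from 1 nucleus. Without treated replicate 1 the cluster 184 value was 1.05 and no longer called. Of the leave-one-out fits, the call in cluster 153 was held in the one without treated replicate 1, with values of 2.76 to 3.90 in the other 3. *Slit2* was lower in cluster 148 at 75.1, 264, 13.4 and 0 CPM, from 4, 9, 1 and 0 UMIs (log2 fold change -4.27, edgeR adjusted p = 0.0499), a call held, of the leave-one-out fits, in the one without control replicate 1, with values of -6.31 to -3.12 in the other 3.

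**Figure D5:**
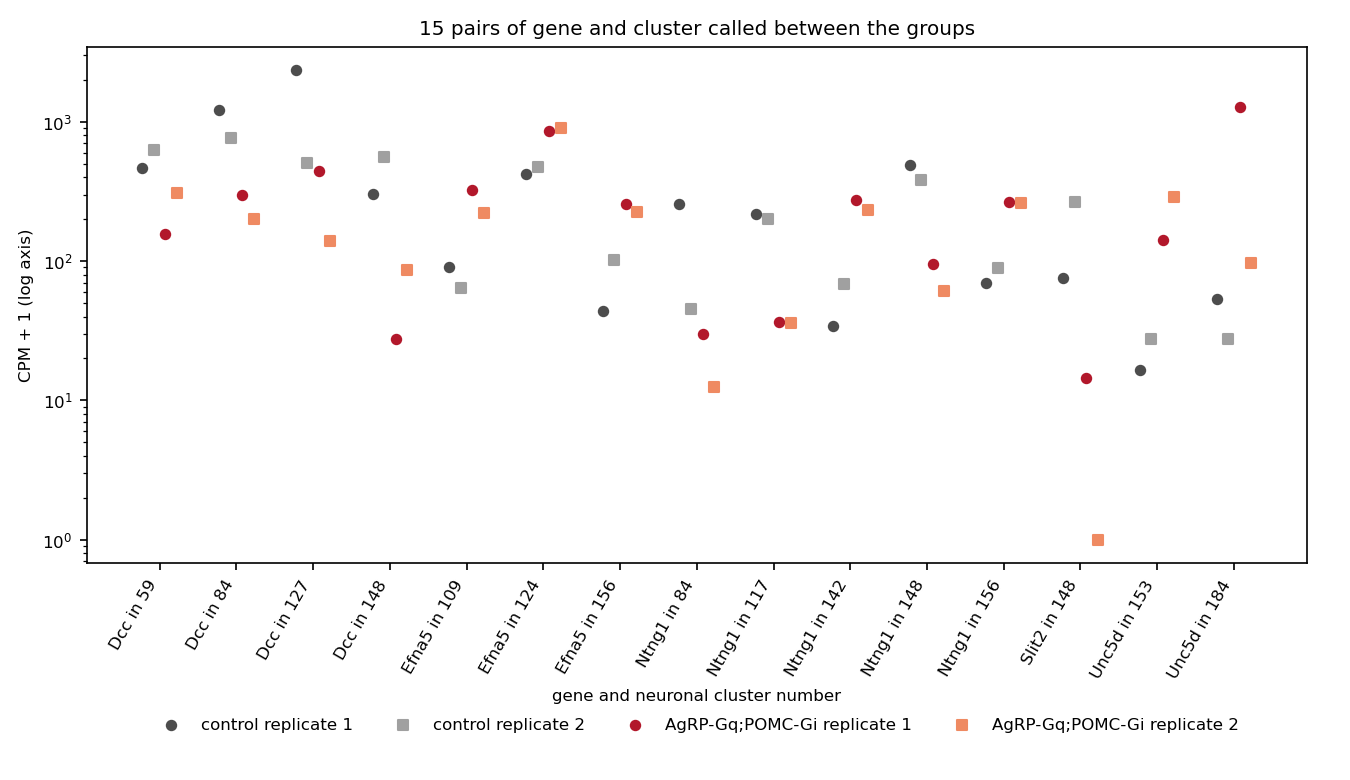
CPM + 1 on a log axis in each of 4 libraries for 15 of the 16 pairs of member and neuronal cluster called by edgeR at adjusted p under 0.05. Control and AgRP-Gq;POMC-Gi points do not overlap in any pair shown. *Slit2* in cluster 148 lies lowest, at 13.4 and 0 CPM in the AgRP-Gq;POMC-Gi libraries.

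The other genes of these pathways were 48 genes for co-receptors, alternative ligands and downstream effectors. In neurons 0 of 47 tested were called. Their calls by edgeR were 1 of 317 in the cell types (0.315%, against 0.121% over all genes) and 6 of 5456 in single clusters (0.11%, against 0.0385% over all genes). Under the alternatives they were 0.296% to 2.84% of tests in the cell types, where the share over all genes was 0.151% to 1.17%, and 0.0262% to 0.202% in single clusters, against 0.0208% to 0.0961%. *Nell2*, which encodes a secreted ROBO3 ligand, was lower in treated astrocytes at 138, 126, 63.6 and 74.6 CPM (log2 fold change -0.89, SE 0.12, edgeR adjusted p = 0.0102), with a lower treated mean in 10 of 11 astrocyte clusters. In OPC *Nell2* was also lower in both treated libraries, at 297, 201, 128 and 161 CPM, and was not called. Oligodendrocytes held 23.5, 23.7, 21.1 and 24.4 CPM of *Nell2*. *Nell1*, its paralog, was called higher in cluster 124 and lower in clusters 64 and 135. *Kalrn*, a Rac activator, was called higher in cluster 157. *Dscaml1*, an adhesion molecule, and *Lrrc4c*, the netrin-G1 ligand, were called lower in clusters 50 and 148. *Kalrn* was at 57.6, 47.7, 475 and 74.5 CPM, high in treated replicate 1 alone. *Nell1* UMIs were 4, 30, 1 and 8 in cluster 64 and 154, 32, 2 and 1 in cluster 135. With 1 library left out, log2 fold changes were 0.32 to 3.53 for *Kalrn* and -2.05 to -1.25 for *Dscaml1*. Those of *Nell1* were -3.98 to -0.62 in cluster 64 and -4.90 to -2.98 in cluster 135. For *Lrrc4c* the groups overlapped, at 1728, 58.7, 13.4 and 119.8 CPM. Without control replicate 1 its call was lost and its log2 fold change reversed to 0.63. Of these 6 cluster calls, edgeR's own filter kept that of *Nell1* in cluster 124 alone, and that call was lost without a filter.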

How the data were processed

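Nuclei were sorted, and 10x libraries were sequenced and aligned by the authors with Cell Ranger 7.0.0 to the mm10 mouse genome. Whether intronic reads were counted is not given in the sources used here. The deposited matrices hold counts of UMIs per gene and barcode. The authors required 800 UMIs and 500 genes per barcode and no more than 10% mitochondrial UMIs, removed doublets, clustered the rest, and deposited the annotation used here for cell types and clusters (Seurat 4.3.0 is named among their tools). No further filter was applied to nuclei.

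UMIs were summed per library and cell type or cluster. Groups were compared in edgeR 4.0.16 (R 4.3.3) with its quasi-likelihood test, TMM factors and Benjamini-Hochberg adjustment over all genes detected in 5% or more of the nuclei tested, at a threshold of 0.05, and the library was the replicate. Cell types needed 20 nuclei and clusters 5 nuclei in every library. DESeq2 1.42.0 was the other tool for cell types, and was not run within single clusters. Neuronal classes needed a 4-fold ratio of *Slc17a6* and *Slc32a1*. Scripts were tested on simulated data. Described by rule were members called between groups, the 2 highest in neurons per role, those with at least 20 UMIs in a highest type other than neurons, the 5 with the widest ratio of highest to median cluster, those differing between neuronal classes, and the 5 highest and 3 lowest correlations. Members and lists were chosen with earlier results of these data known. Gene positions came from GENCODE M21. Of the calls in single clusters, 1 is not reported here by its values. Promoter windows were given for 35 of 40 members.

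Alternatives were another tool, scaling, filters, a replicate block, leaving out each library, other class and breadth limits, and thinned shares. Precision is limited by 2 libraries per group and, in clusters, by the few nuclei. Replicate numbers were checked for pairing: deviations of same-numbered libraries correlated at 0.18 in neurons, 0.24 in astrocytes, 0.34 in oligodendrocytes and -0.15 in fibroblasts, and the labels name no shared batch.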

Additional observations from a re-analysis of the deposited data

Results flagged for a closer look

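No member met a condition for a closer look, and 2 other genes of the pathways did, because their group effects differed between cell types in edgeR's interaction test with the library as a block. Over all genes that test called 16 of 7891 (0.203%) for neurons against astrocytes and 24 of 6312 (0.38%) for neurons against oligodendrocytes. *Nell2* was at 152, 101, 111 and 134 CPM in neurons and at 138, 126, 63.6 and 74.6 CPM in astrocytes (control replicates 1 and 2, then treated replicates 1 and 2), and the log2 group effect in neurons lay above that in astrocytes by 0.93 (SE 0.15, edgeR adjusted p = 0.0429). In OPC, for which no interaction was tested, *Nell2* was at 297, 201, 128 and 161 CPM. *Enah*, an actin regulator downstream of netrin and Robo receptors, was at 388, 383, 381 and 384 CPM in neurons and at 430, 366, 209 and 185 CPM in oligodendrocytes, a difference of 0.98 (SE 0.13, edgeR adjusted p = 0.0367). *Enah* was not called within oligodendrocytes. Oligodendrocyte markers in astrocytes and the share of neurons also differed between the groups, and their part was not tested.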

How the results depend on the processing

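In neurons 0 members were called, and 0 to 9 when 1 library was left out, with 9 only without treated replicate 2 (33.3% of members tested, against 16.6% of all genes). In glutamatergic and GABAergic neurons 0 members were called with all 4 libraries, under each alternative of tool, scaling, filter and block. The calls there without treated replicate 2 are given above beside those over all genes. In the cell types 2 members were called, 1 without TMM, 7 without a filter, 4 with the replicate block and 2 to 4 when 1 library was left out. The share of all genes called moved too, from 0.121% to 0.257%, 0.508%, 1.12% and 0.29% to 1.17%. In single clusters 16 were called, 26 without a filter, 6 with edgeR's own filter, 10 in clusters with at least 10 nuclei per library, 22 with the replicate block and 17 to 34 when 1 library was left out. Over all genes the share called was 0.0385%, and 0.0543%, 0.0208%, 0.0329%, 0.0567% and 0.0568% to 0.0961% under these alternatives. The median of 8 clusters at 50% of the highest level became 35 at 25% and 21 by thinned shares. Of 27 ligand-receptor pairs and the netrin-G paralogs, those with rho of at least 0.3 in size were 2, 1 by thinned shares, and 1 to 2 when 1 library was left out. The cause was not tested. Of 166 alternatives of named values 2 reversed: *Robo1* in mural cells without treated replicate 2 (-0.10, with 1.03 to 1.82 when another library was left out), and the median log2 difference of members in neurons with equal weight of clusters (-0.059 against 0.033). Without TMM scaling that median was also below 0 (-0.029), an alternative outside this count, so the sign cannot be laid to cluster weight alone. Of 125 alternatives of member cluster calls 56 were no longer past the threshold and 0 reversed. Cluster calls of the other pathway genes are outside both counts. Of those, *Lrrc4c* in cluster 148 reversed without control replicate 1 (0.63). By the labels, paired samples share only a number, but choroid plexus markers were high in replicate 2 of both groups. The main tests leave the replicate number out. With only 2 pairs, the replicate block is given here as a count. Values within single astrocyte and mural clusters, and with equal cluster weights, were chosen after seeing the data. Precision is limited by 2 libraries per group and by cluster libraries of as few as 5 nuclei.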
